A study of Drosophila melanogaster with 8 samples.

Results

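Fibroblast growth factor (FGF) receptors and ligands were followed in a single-cell atlas of the late Drosophila embryo. The receptors were breathless (btl) and heartless (htl), and the ligands were branchless (bnl), pyramus (pyr) and thisbe (ths). They were the rows of the deposited count matrix that carry exactly these symbols, 5 of 17717 features. Pools of whole embryos at stage 17, between 17 and 18.5 h of age, had been dissociated and sequenced in droplets, giving libraries of 4 biological replicates that were each read in 2 lanes, deposited as 8 samples. All were of 1 condition and 1 strain, in which alrm-gal4 drives UAS myr::GFP, a membrane reporter, in astrocytes, and 25H07-gal4 drives the nuclear reporter UAS-redstinger::NLS. The comparisons are therefore between classes of cells. The sources used here do not assign cells to replicates, so all of them count as 1 sample here and no p-value is given.

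FGFs are secreted proteins that bind heparan sulphate at the cell surface and activate receptor tyrosine kinases. In Drosophila both receptors pass the signal through the adaptor Stumps (also called Dof) to the Ras and MAP kinase cascade. Bnl activates Btl and guides the branching of the tracheal system, the tubes that carry air. Pyr and Ths both activate Htl, which is needed for the spreading of the early mesoderm and for heart and muscle formation, and which also acts in glia, where the growth of astrocyte processes depends on it.

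The genes lie on 3 chromosome arms. In the Ensembl annotation of BDGP6.54, btl (FBgn0285896) spans 3L 14075772 to 14083229 on the plus strand. The minus strand of 3R carries htl (FBgn0010389) from 18045216 to 18052984 and bnl (FBgn0014135) from 19794073 to 19836817. The ligands of Htl are neighbours on the plus strand of 2R, with pyr (FBgn0033649) from 11712263 to 11726345 and ths (FBgn0033652) from 11756817 to 11814424, 30471 bases further on. The ths span also holds CG13193 and CG42493 on its own strand, so reads there may be shared between genes. The counts themselves were made on an earlier release of the assembly, BDGP6.22, and the gene models of the releases were not compared.

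The matrix held 38531 distinct cells, of which 27932 had 200 or more genes and under 20% of UMIs (unique molecular identifiers, which stand for captured RNA molecules) from mt: genes, the mitochondrially encoded transcripts. A kept cell had a median of 4069 UMIs and 1098 genes. Barcodes end in a number from 1 to 8, and numbers n and n + 4 shared 99.6 to 99.7% of the barcodes of the smaller one, against at most 0.422% for other pairs of numbers. These were summed to 4 library pairs. Library pair 1 stood apart, with 3.58% of its cells being neurons, against 17.8 to 26.3% in the other pairs, and 8.03% being Mhc cells, against 3.11 to 3.22%. Levels that the results turn on are therefore also given within pairs.

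Classes were gated on genes other than the members, each needing 3 or more UMIs of the gate gene at 2 or more times its overall level. The gates gave 486 alrm astrocytes, 732 other repo glia, 4747 nSyb neurons, 907 trh cells, 125 twi cells, 1239 Mhc cells and 1505 epidermal cells, the last on 26 Tweedle (Twdl) cuticle genes and 7 other cuticle or apical matrix genes. The remaining 18191 cells had no class. Beside the gate gene itself, at least 2-fold levels over all other cells were found for 7 of 7 astrocyte markers in alrm astrocytes, 8 of 9 glial markers in other repo glia, 7 of 7 neuronal markers in nSyb neurons, 4 of 5 markers of adult muscle precursors in twi cells, and 7 of 7 muscle markers in Mhc cells. In trh cells 4 of 7 tracheal markers (Gasp, pio, uif and kni) reached that level but verm, serp and dysf did not, so the class is called by its gate gene. Epidermal cells had 34 of 34 of their own list, gate genes included, and also 7 of 8 of the tracheal list, and 514 cells passed the gates of both. Alrm astrocytes had 7 of 8 neuronal markers at that level, and other repo glia had 0 of 8. Classes were also built a second way, from 38 clusters made without the members, of which 13 were assigned to a class by markers.

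Levels are given as CPM, the UMIs of a gene per 1000000 UMIs of all cells in a class, with a 95% interval that covers counting error only. A member was called higher in a class when its CPM was at least 2 times that of all other kept cells, and lower when at most 0.5 times, both in the pooled cells and in each of the 4 library pairs. The 27932 kept cells held 2296 UMIs of btl in 818 cells, 3173 of htl in 2034 cells, 6487 of bnl in 2718 cells, 6784 of pyr in 3092 cells and 9683 of ths in 4088 cells. Of the 35 levels of 5 members in 7 classes, 7 were called higher and 6 lower. Over all features the share called higher ran from 3.31 to 21.9% by class and the share called lower from 5.84 to 45.9%.

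**Figure D1:**
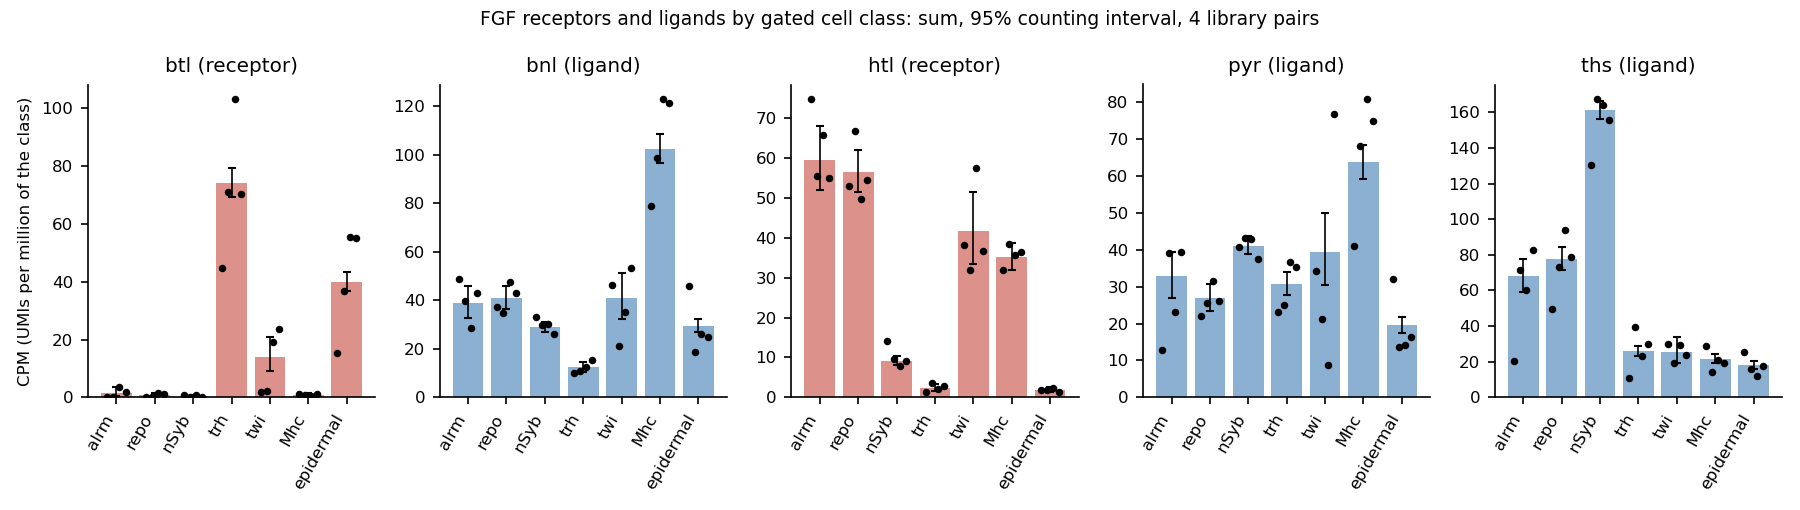
Level of each FGF receptor (red) and ligand (blue) in CPM in 7 gated cell classes. Bars are sums over the class, lines the 95% counting interval and points library pairs 1 to 4 from left to right. The receptor btl stands at 74.3 CPM in trh cells, htl at 59.6 and 56.5 CPM in both glial classes, bnl at 103 CPM in Mhc cells and ths at 161 CPM in nSyb neurons.

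The receptor btl was the most restricted member. It reached 74.3 CPM in trh cells (interval 69.4 to 79.4), against 4.96 CPM in all other kept cells, a log2 ratio of 3.91. Library pairs 1 to 4 gave 44.8, 71.2, 103 and 70.2 CPM in trh cells, and their log2 ratios were 4.03, 4.04, 4.11 and 3.43. All 4 pairs in trh cells lay far above every pair of the astrocytes, other glia, neurons and Mhc cells, where the highest was 3.56 CPM. The call is set against 3.76% of 11354 tested features that were called higher in trh cells, and 0.564% of features had a larger ratio than btl. A btl UMI was found in 43.6% of trh cells, with a median of 11339 UMIs, against 0.295% of neurons, with a median of 4061 UMIs. With each cell thinned to 1000 UMIs these shares were 7.28% and 0.0423%.

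Epidermal cells came next in btl, at 40.0 CPM (interval 36.9 to 43.3), with 15.2, 36.8, 55.6 and 55.1 CPM in pairs 1 to 4. This was also called higher, where 6.4% of features were, but its btl came from a minority of the cells. The 416 epidermal cells that fell in the trh clusters had 86.3 CPM, and the other 1089 had 0.853 CPM on 10 UMIs. The gate gene trh itself stood at 79.6 CPM in epidermal cells, against 431 CPM in trh cells. In twi cells btl averaged 14.0 CPM, with 2.01, 2.13, 19.1 and 23.6 CPM in the pairs, and 33 of its 35 UMIs lay in 15 cells of the trh clusters. The part of cells that pass more than 1 gate was not tested.

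Elsewhere btl was near 0. It was called lower in astrocytes at 1.57 CPM on 7 UMIs, where 7.54% of features were called lower, and in other repo glia at 0.704 CPM on 7 UMIs, where 11.2% were. Neurons had 0.473 CPM and Mhc cells 0.880 CPM, both called lower among the 19.9% of features called lower in each. The order by level was trh, epidermal, twi, alrm, Mhc, repo and nSyb. The ranges over library pairs overlapped between each neighbour in it, although trh cells were higher than epidermal cells, epidermal cells higher than twi cells, and twi cells higher than astrocytes within all 4 pairs.

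Clusters drew the same receptor more sharply. Clusters 23 and 33, the trh clusters, held 95.5% of all btl UMIs at 87.1 CPM (57.5, 80.3, 107 and 91.9 CPM in the pairs), against 0.501 CPM in all other kept cells, a 174-fold difference (interval 142 to 216). Cluster 23, in which CG12519 and CG32214 are among the 3 leading genes, had 89.8 CPM over 993 cells. Cluster 33, led by CG13272, CG15887 and Spn43Aa, had 63.5 CPM over 211 cells, of which 184 came from library pair 1. The epidermal cluster had 0.900 CPM on 10 UMIs, and the twi cluster held 0 UMIs in 519 cells, with an upper limit of 2.32 CPM. The trh gate took in other cells besides: 228 of its 907 cells fell in neuron clusters and had 0 btl UMIs, with an upper limit of 1.94 CPM, while the other 679 had 83.9 CPM.

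**Figure D2:**
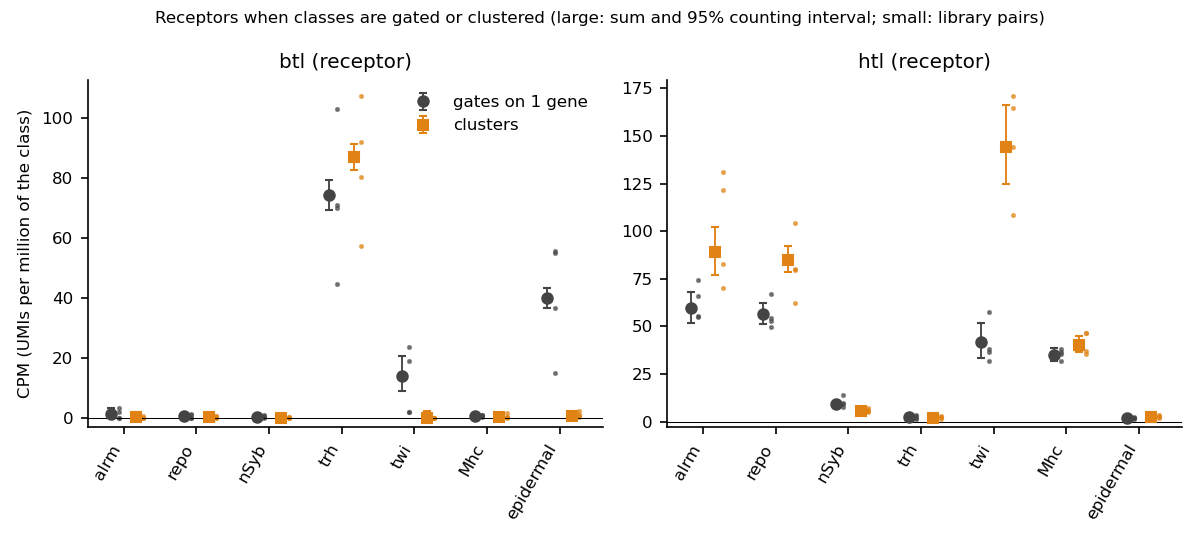
Receptor levels in CPM with classes made by 1-gene gates (black circles) or by clusters (orange squares). Large symbols are sums with the 95% counting interval and small points the 4 library pairs. In epidermal cells btl is at 40.0 CPM by gates and 0.900 CPM by clusters, and in twi cells htl is at 41.7 CPM by gates and 144 CPM by clusters.

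The receptor htl was found in glia and in the muscle lineage. Alrm astrocytes had 59.6 CPM (interval 51.9 to 68.0), with 74.6, 55.3, 65.8 and 55 CPM in pairs 1 to 4, against 12.8 CPM in all other kept cells. Other repo glia had 56.5 CPM (interval 51.4 to 62.1), with 52.8, 66.9, 49.6 and 54.6 CPM in the pairs, against 11.8 CPM in all other kept cells. Both were called higher, with log2 ratios of 2.22 and 2.26, where 4.25% of features were called higher in astrocytes and 6.88% in other repo glia. The glial classes overlapped each other over the pairs, with a log2 ratio of 0.07 between astrocytes and other repo glia (interval -0.17 to 0.31). Neurons had 9.13 CPM, with 14.0, 9.59, 7.84 and 9.07 CPM in the pairs. Astrocytes thus lay above neurons in all 4 pairs with no overlap, by a log2 ratio of 2.71 (interval 2.44 to 2.97) that is 6.52-fold.

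A htl UMI was found in 34.4% of astrocytes and 44.1% of other repo glia, against 4.82% of neurons. Other repo glia had the deeper cells, with a median of 10577.5 UMIs against 4026.5 in astrocytes, and with each cell thinned to 1000 UMIs the shares were 11.3% of astrocytes and 6.05% of other repo glia, against 0.592% of neurons.

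In twi cells htl stood at 41.7 CPM (interval 33.3 to 51.6), with 38.1, 31.9, 57.4 and 36.6 CPM in the pairs. Mhc cells had 35.1 CPM (interval 32 to 38.5), with 31.8, 38.3, 35.6 and 36.4 CPM. Mhc cells were called higher at a log2 ratio of 1.55, where 4.75% of features were. No member was called in twi cells in either direction, where 3.31% of features were called higher and 5.84% lower, and htl missed the call in 1 pair, at a log2 ratio of 0.97. The log2 ratio of htl in twi cells over Mhc cells was 0.25 (interval -0.11 to 0.58) and was below 0 in pair 2, so the gates did not separate the classes. Lowest of all were trh cells at 2.41 CPM and epidermal cells at 1.85 CPM, both called lower, where 28.2% and 45.9% of features were.

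The twi cluster gave another value for htl than the twi gate. Cluster 16, led by CG15529, twi and Him, had 144 CPM over 519 cells (interval 125 to 166), with 109, 171, 165 and 145 CPM in the pairs, the highest of the 38 clusters. That is a log2 ratio of 1.84 (interval 1.58 to 2.09) over the Mhc clusters, which had 40.4 CPM, and it was positive in all 4 pairs. The Mhc clusters themselves differed, with 66.9 CPM in cluster 6, 27.7 CPM in cluster 35 and 8.56 CPM in cluster 20. Cluster 30, with 12.9 CPM of htl over 113 cells, met 3 twi markers and had twi at 15.8 times the overall level. It was left out of the class for its leading genes, which include spok and dib. Of the 125 cells of the twi gate, the 48 in cluster 16 had 173 CPM at a median of 3000.5 UMIs, and the 77 in other clusters had 29.4 CPM at a median of 18570 UMIs. Muscle RNA (Mhc, Mlc1, Mlc2, Tm2 and up together) was at 4900 CPM in the gated twi cells and 1499 CPM in the twi cluster, against 25912 CPM in Mhc cells. The gated twi cells also held the epidermal list at 3876 CPM, against 300 CPM in the twi cluster. The part of such RNA in the difference was not tested.

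Glial clusters differed in htl. Cluster 27, led by CG43085, CG9686 and CG11159, had 143 CPM over 343 cells (interval 118 to 171). Cluster 24, led by CG4721, Mdr49 and CG11670, had 77.8 CPM over 987 cells (interval 71.1 to 85.0), and the astrocyte cluster 10, led by alrm, CG14141 and CG31235, had 88.9 CPM over 435 cells. The lowest library pair of cluster 27, at 111 CPM, lay above the highest of cluster 24, at 94.6 CPM. Among the clusters of no class, cluster 19, led by CG14342, CG14921 and CG13331, had the most htl at 48.3 CPM over 592 cells. It also met 5 markers of the other glia list and 3 each of the neuronal and epidermal lists.

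The Btl ligand bnl was led by muscle. Mhc cells had 103 CPM (interval 96.8 to 109), with 78.8, 98.7, 123 and 121 CPM in pairs 1 to 4, against 22.2 CPM in all other kept cells. This was called higher at a log2 ratio of 2.21, and the lowest pair lay above every pair of the other classes, where the highest was 53.2 CPM in twi cells. A middle group followed, with 41.1 CPM in other repo glia, 40.9 in twi cells, 38.9 in astrocytes, 29.4 in epidermal cells and 28.9 in neurons. These overlapped with their neighbours over the library pairs. The lowest level was in trh cells, the class with most receptor, at 12.3 CPM (interval 10.5 to 14.4) and 10.1, 10.9, 12.3 and 15.5 CPM in the pairs, below every pair of the other classes. This was not called lower, since its log2 ratio of -1.25 over all other kept cells was -0.88 in pair 4. The median log2 ratio of all tested features in trh cells was -0.93, and 59.2% of features had a larger ratio than bnl.

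Between the classes that pass a cuticle or trh gate, the log2 ratio of bnl in trh cells over epidermal cells was -1.25 (interval -1.52 to -0.99) and negative in all 4 pairs. Within epidermal cells, those in the trh clusters had 5.85 CPM, and those in other clusters had 49.3 CPM. Receptor and ligand thus split the epidermal gate along the same line, with btl at 86.3 CPM where bnl was low and 0.853 CPM where it was high. The split was not particular to bnl. In the epidermal cells of the trh clusters pyr was at 6.36 CPM and ths at 3.33 CPM, against 30.6 and 30.4 CPM in the others. The trh clusters also carried the epidermal list, at 22496 CPM against 42228 CPM in the epidermal cluster. Cluster 23 met 3 markers each of the trh and epidermal lists, with gate levels 5.94 and 4.765 times the overall level.

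Among clusters bnl was highest in cluster 35 at 150 CPM (interval 137 to 165), found in 92.5% of its 80 cells. This Mhc cluster, led by Pebp1, CG8629 and CG42714, was also the deepest, with a median of 44505.5 UMIs. Mhc cluster 6 had 118 CPM at a median of 2137 UMIs. Mhc cluster 20, led by lmd, sing and Hsc70-1, had 12.4 CPM and drew 394 of its 534 cells from library pair 1. Glial cluster 27 had 126 CPM, beside its 143 CPM of htl, and the twi cluster had 95.4 CPM, with 48.7 to 145 CPM over the pairs. The epidermal cluster had 57.7 CPM of bnl, and the trh clusters had 10.6 CPM. In the trh clusters bnl was called lower at a log2 ratio of -1.51, where 54.4% of features were and the median was -1.995.

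The ligand pyr was spread most evenly, and none of its levels was called in either direction. Mhc cells had 63.7 CPM (interval 59.1 to 68.5), with 41.1, 68.1, 80.8 and 75 CPM in the pairs, and their log2 ratio of 1.26 over all other kept cells missed the call in pair 1 alone, at 0.84. Neurons had 41.2 CPM (interval 38.8 to 43.6), with 40.6, 43.1, 43.0 and 37.4 CPM. The other levels were 39.3 CPM in twi cells, 32.8 in astrocytes, 30.7 in trh cells, 27 in other repo glia and 19.5 in epidermal cells, and every neighbour in this order overlapped with the next over the pairs. The twi value rested on few cells, with 73.5% of its UMIs in 5 cells and 46 in 1 cell.

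Astrocytes had less pyr than neurons by a log2 ratio of -0.33 (interval -0.62 to -0.05), but only in 3 of 4 pairs, with 12.9, 39.0, 23.1 and 39.3 CPM in pairs 1 to 4. Among clusters pyr was highest in cluster 32, led by plu, BigH1 and wisp, at 114.5 CPM, where 41.0% of the UMIs lay in 5 cells. Neuronal cluster 3, led by CG14274, CG3014 and twit, had 103 CPM over 390 cells, against 44.8 CPM in the neuron clusters as a whole. Cluster 13, led by CG9673, Fst and CG15423 had 69.4 CPM over 701 cells and held 11.5% of all pyr UMIs. It met 7 markers of the Mhc list but was given no class.

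The ligand ths was highest in neurons. Neurons had 161 CPM (interval 156 to 166), with 130, 167, 164 and 156 CPM in pairs 1 to 4, against 21.5 CPM in all other kept cells. They held 56.3% of all ths UMIs, and 45.9% of them had at least 1. This was called higher at a log2 ratio of 2.91, where 21.9% of features were, and 7.80% of features had a larger ratio. The lowest pair of the neurons lay above every pair of the other classes, where the highest was 94.0 CPM in other repo glia. Other repo glia had 77.7 CPM and astrocytes 68.1 CPM, with 20.6, 71.7, 60.5 and 82.5 CPM in the pairs of the astrocytes. The remaining classes had 25.8 CPM in trh cells, 25.7 in twi cells, 21.7 in Mhc cells and 18.0 in epidermal cells.

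Among clusters the highest level lay outside the 7 classes. Cluster 17, led by ppk26, ppk and Tsp47F, had 218 CPM of ths (interval 206 to 230) over 1103 cells and held 19.4% of the ths UMIs. The genes ppk and ppk26 encode channel subunits of the sensory neurons that tile the body wall. The cluster met 7 markers of the neuronal list and 7 of the other glia list. It was given no class because nSyb and repo, at 2.965 and 2.564 times their overall levels, were under the 4-fold asked. Neuronal clusters 2, 3 and 4 had 149, 174 and 149 CPM, and cluster 19 had 101 CPM. In trh cells ths followed the other cells of that gate, with 161 CPM in the 228 cells of neuron clusters and 5.31 CPM in the 585 cells of the trh clusters.

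**Figure D3:**
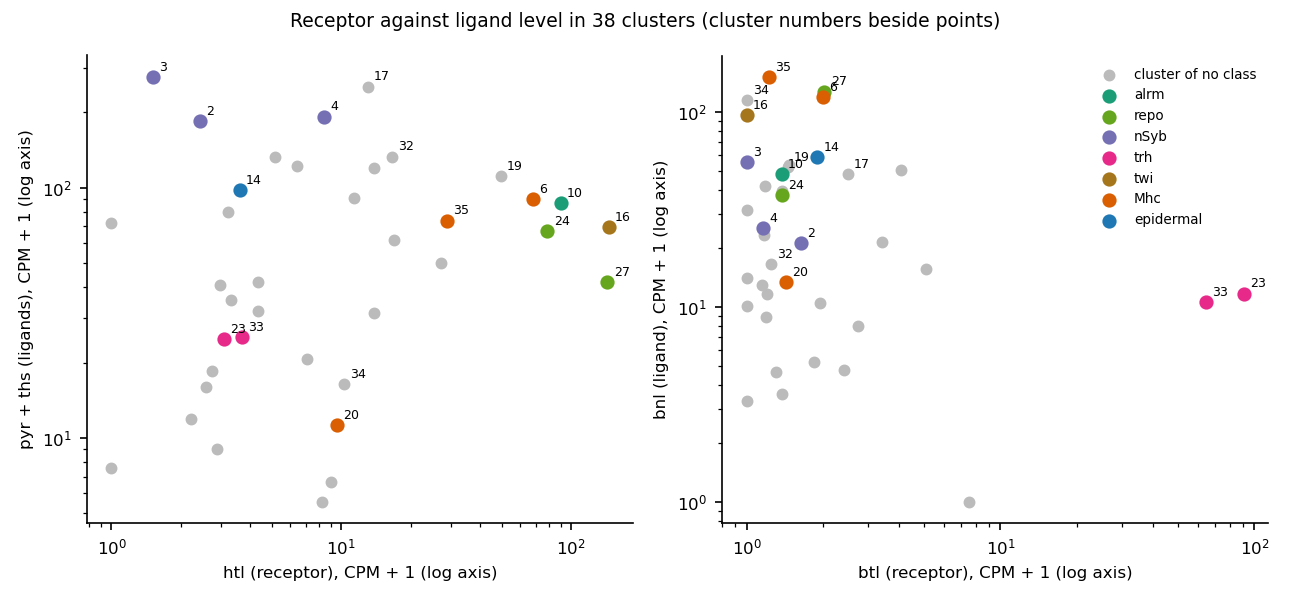
Receptor against ligand in 38 clusters on log axes of CPM + 1, with htl against pyr and ths together (left) and btl against bnl (right). Each point is a cluster, coloured by class where it has one. The neuron clusters 2, 3 and 4 lie high in ligand and low in htl, and the trh clusters 23 and 33 lie apart at 89.8 and 63.5 CPM of btl.

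Receptor and ligand of each system were then set against each other as the receptor's share of their UMIs. A 3′ UMI stands for a molecule whatever its length, but capture differs between genes, so the shares are read between classes only. For btl of btl and bnl, the share was 85.8% in trh cells (81.6 to 89.3% over the library pairs), 57.6% in epidermal cells (24.9 to 68.8%) and 25.5% in twi cells (4.17 to 35.1%), with 26.1% in all kept cells. It was 3.89% in astrocytes, 1.69% in other repo glia, 1.61% in neurons and 0.851% in Mhc cells. By clusters it was 89.1% in trh cells and 1.54% in epidermal cells.

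For htl of htl, pyr and ths, the share was 37.1% in astrocytes (31.1 to 69.0% over the pairs), 35.1% in other repo glia (28.3 to 42.4%), 39.1% in twi cells (26.7 to 60%) and 29.2% in Mhc cells (26 to 31.7%). It was 4.32% in neurons (3.64 to 7.58%), 4.09% in trh cells and 4.69% in epidermal cells, with 16.2% in all kept cells. Every pair of both glial classes lay above every pair of the neurons. By clusters the share was 50.9% in astrocytes, 57.4% in other repo glia and 67.8% in twi cells, against 2.73% in neurons.

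The classes differed in which ligand lay beside the receptor. In neurons ths and pyr stood at 161 and 41.2 CPM, beside 9.13 CPM of htl. Mhc cells carried htl at 35.1 CPM beside 63.7 CPM of pyr and 21.7 CPM of ths, and had bnl at 103 CPM with 0.880 CPM of btl. In trh cells btl was at 74.3 CPM and bnl at 12.3 CPM, so btl was higher and bnl lower than in Mhc cells.

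In both glial classes the pooled ths level was higher, and the pooled htl level lower, in cells with neuronal RNA. The summed level of nSyb, elav, brp, Syt1 and fne was 4384 CPM in astrocytes and 1782 CPM in other repo glia, against 8833 CPM in neurons, and 148 cells passed both the alrm and nSyb gates. The 163 astrocytes with no UMI of these 5 genes had 152 CPM of htl (interval 119 to 191), and the 323 with at least 1 had 47.0 CPM (interval 39.7 to 55.2). Library pair 1 showed no such gap, at 74.9 CPM without and 74.5 CPM with neuronal UMIs, but it held only 29 htl UMIs in 50 astrocytes. Pairs 2 to 4 had 213, 239 and 105 CPM without and 37.2, 49.6 and 48.7 CPM with neuronal UMIs. Astrocytes without neuronal UMIs had 3.75 CPM of ths on 2 UMIs, against 76.9 CPM on 301 UMIs in the rest. Their pyr was at 15.0 CPM on 8 UMIs (interval 6.03 to 30.9), against 35.2 CPM (interval 28.8 to 42.7). These pyr intervals overlapped. The cells without neuronal UMIs were shallower, with a median of 2181 UMIs against 5893.

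Other repo glia split in the same direction for htl and ths. The 147 cells with no UMI of the neuronal genes had 93.0 CPM of htl and 14.8 CPM of ths, and the other 585 had 52.7 CPM of htl and 84.3 CPM of ths. For pyr the intervals overlapped, at 21.1 CPM (12.1 to 34.3) without and 27.6 CPM (23.9 to 31.6) with neuronal UMIs. Here too the cells without neuronal UMIs were shallower, with a median of 5455 UMIs against 12351. Per 1000 UMIs of the neuronal genes there were 15.5 UMIs of ths in astrocytes and 43.6 in other repo glia, against 18.2 in neurons. The part of neuronal RNA in the glial ths and pyr levels was not tested otherwise. The intervals of bnl overlapped across the split, at 43.1 and 38.3 CPM in astrocytes without and with neuronal UMIs.

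**Figure D4:**
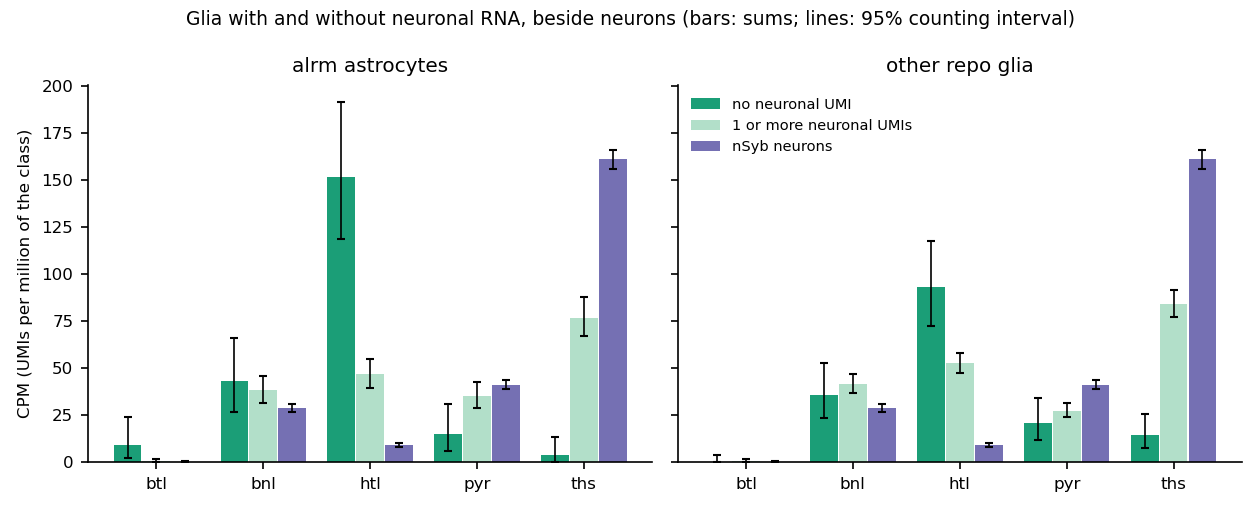
CPM of the 5 members in alrm astrocytes (left) and other repo glia (right), split into cells with no UMI of nSyb, elav, brp, Syt1 and fne (dark green) and cells with 1 or more (light green), beside nSyb neurons (purple). Bars are sums and lines the 95% counting interval. In astrocytes without neuronal UMIs htl is at 152 CPM and ths at 3.75 CPM.

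Within single cells the receptor and ligand of the Htl system did not separate by detection over all gated astrocytes, which include cells with neuronal RNA. A ths UMI was found in 22.2% of astrocytes with htl and in 23.2% of those without, and the cells with htl were the deeper, at a median of 4709 against 3516 UMIs. A pyr UMI was found in 21.0% with htl and 13.8% without. Of the 163 astrocytes with no neuronal UMI, 33.7% had htl and 1.23% had ths. Of the 323 with neuronal UMIs, 34.7% had htl and 33.7% had ths. Detection of receptor and ligand in the same cell was not tested within these parts.

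Other genes of the pathway were read from a list of 33, all of which were tested. In astrocytes 4 were called higher and 0 lower: the adaptor stumps at a log2 ratio of 2.35, the MAP kinase phosphatase Mkp3 at 1.86, slgA at 1.5 and the MAP kinase kinase Dsor1 at 1.46. Over all features 4.25% were called higher there and 7.54% lower. The median log2 ratio of the list was 0.67, against -0.04 over all tested features. The gene slgA, listed among the heparan sulphate genes, encodes a proline dehydrogenase. Other repo glia had 5 called higher and 0 lower, with stumps at 2.82, the GTPase Ras85D at 2.36, the glypican dlp at 2.11, the adaptor drk at 1.72 and the repressor aop at 1.58, where 6.88% of all features were called higher and 11.2% lower.

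The stumps levels followed the receptors in part. They were 103 CPM in astrocytes, 122 CPM in other repo glia and 60.4 CPM in trh cells, against 6.82 CPM in neurons, where stumps was called lower at a log2 ratio of -1.83. Mhc cells, which had htl, stood at 27.6 CPM. In trh cells the log2 ratio of stumps was 1.68 and missed the call in pairs 2 and 4, at 0.50 and 0.84. Among astrocytes 59.3% of cells with a htl UMI also had stumps, against 33.9% of cells without, and among trh cells 50.4% of cells with btl had it, against 18.0% without. Cells with a receptor UMI were also the deeper ones, at medians of 4709 against 3516 UMIs in astrocytes and 18320 against 7313.5 UMIs in trh cells, and the part of depth was not tested.

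In trh cells 0 of the 33 genes were called higher and 3 lower, where 3.76% of all features were called higher and 28.2% lower. These were trol, the basement membrane perlecan, at a log2 ratio of -2.39, pnt, an ETS activator downstream of MAP kinase, at -2.06, and sfl, a heparan sulphate sulphotransferase, at -1.39. The list median was -0.55 there, against -0.93 over all tested features. In twi cells drk was called higher at 1.37 and sgl, which makes a sugar precursor of heparan sulphate, lower at -1.36, where 3.31% of all features were called higher and 5.84% lower. Neurons had 12 called higher and 3 lower, where 21.9% of all features were called higher and 19.9% lower. Mhc cells had 0 and 0, where 4.75% and 19.9% were, and epidermal cells 1 and 11, where 6.4% and 45.9% were. In neurons those called higher included the cascade members Sos, Raf, Dsor1 and rl, and the 3 lower were stumps, pnt and trol.

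**Figure D5:**
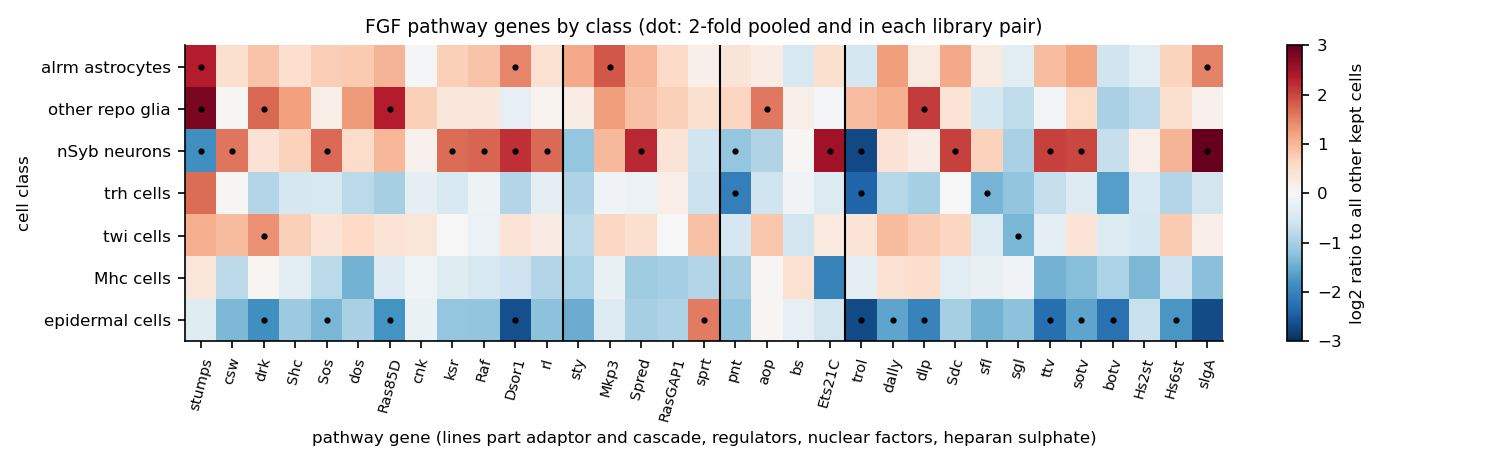
Log2 ratio of CPM in each of 7 gated classes over all other kept cells for 33 genes of the FGF pathway. Red is higher and blue lower, and a dot marks a gene at least 2-fold apart in the pooled cells and in each library pair. The adaptor stumps is at 2.35 in astrocytes and 2.82 in other repo glia, against -1.83 in neurons.

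Genes with the most similar pattern were found by the Pearson correlation of log2(CPM + 10) over the 38 clusters, which share libraries and differ in depth, so the values are descriptions. For btl they were Cyp318a1 (0.966), MCO3 (0.965), CG42749 (0.947), CG12723 (0.945) and CG4386 (0.943). For htl they were SmydA-4 (0.865), Cyp12e1 (0.792), CG1667 (0.786), wun2 (0.772) and CanA1 (0.767), and for ths dtn (0.893), CG10137 (0.885), GABA-B-R1 (0.880), a GABA receptor subunit, CG32085 (0.879) and elav (0.878), a neuronal RNA-binding protein. The other ligands had no close match. For bnl the first were CG8321 (0.624), CG15186 (0.623), vn (0.620), an EGF receptor ligand, Mipp1 (0.619) and stck (0.618), and for pyr CG15715 (0.665), CG8768 (0.656), CG8321 (0.627), CG11986 (0.620) and CR15345 (0.612).

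Among the members themselves, the correlation over clusters was 0.574 for bnl and htl and 0.433 for the neighbours pyr and ths. It was -0.208 for btl with its ligand bnl, 0.181 for htl with pyr and 0.134 for htl with ths.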

How the data were processed

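Per the labels and the study's methods, the authors aligned reads with Cell Ranger 3.1.0 to BDGP6 and deposited whole-number UMI counts per gene and barcode, merged over 8 libraries with the aggregate function. Whether that step equalised depth is not given in the sources used here. The UMIs of a barcode under numbers n and n + 4, treated as 2 lanes of 1 library, were summed, so a molecule read in both lanes can count more than once. Intervals therefore used the larger lane count per cell and gene (exact Poisson for CPM, exact conditional binomial for ratios) and cover counting error only. Cells with 200 or more genes and under 20% mt: UMIs were kept. Doublets were not removed, and 1346 cells passed more than 1 gate. A cell passing several gates went to the one with the largest fold. Because a gate asked for 3 UMIs, it favoured deep cells. Features with 50 or more UMIs were tested for calls, with 0.5 UMI added to sums within a library pair.

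Clusters were made with scanpy 1.11.5 and leidenalg 0.10.2 (3000 variable genes, 50 principal components, 20 neighbours, resolution 1), leaving the members out. A cluster needed 3 markers and a 4-fold gate gene level to join a class. Cluster 30 met this for twi cells and cluster 36 for epidermal cells. Both were left out for their leading genes, of steroid hormone synthesis and of fatty acid elongation. These limits and the clusters left out were set after the clusters had been seen. Members, marker lists and the pathway list were chosen with earlier results of these data known. The pathway genes named are the 3 with the largest and the 3 with the smallest ratio among those called in trh cells, astrocytes and twi cells on 20 or more UMIs. The genes most like a member had 500 or more UMIs. Those of the other classes, and clusters named beside the one where a member was highest, were chosen after their values were seen. Scripts ran in Python 3.11.15 with numpy 2.4.6, scipy 1.17.1 and pandas 2.3.3, and were tested on simulated data. In small classes some calls of features with few UMIs came from counting noise alone there, so the share called was also computed for features with 20 or more expected UMIs. The alternatives were other gates, lanes, cell filters and normalisations, clusters in place of gates, and leaving out each library pair.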

Additional observations from a re-analysis of the deposited data

Results flagged for a closer look

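Of 31 levels of a member in a class that could be examined over the 4 library pairs, 1 had a pair far from the others. The level of pyr in epidermal cells was 32.1 CPM in library pair 1, against 13.7 to 16.4 CPM in pairs 2 to 4. Chance alone flags about 1 in 20 such groups. In the epidermal cells outside the trh clusters, pyr was 38.2 CPM in pair 1, against 25.1 to 26 CPM in the other pairs. Pair 1 also held more Mhc cells and fewer neurons than the others, and the part of this in the pyr level was not tested.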

How the results depend on the processing

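Of 114 alternative values of 6 log2 ratios, 88 moved by less than the spread over library pairs and 26 moved by more. The ratio of btl in trh cells over all other kept cells, 3.91, became 3.45 with the study's cell filter (50 to 3000 genes and under 10% mt: UMIs), 4.49 as a mean of per-cell CPM, 7.44 by clusters and 4.22 in cells of 2000 to 20000 UMIs. The ratio of htl in astrocytes over neurons, 2.71, became 3.38 with a 4-fold gate, 3.45 without cells of more than 1 gate, 2.24 from numbers 5 to 8 alone, 4.29 with the study's filter, 4.47 as a mean of per-cell CPM, 4.02 by clusters, 3.53 in cells of 2000 to 20000 UMIs and 4.06 in astrocytes without neuronal UMIs. The ratio of htl in twi over Mhc cells, 0.25, turned negative in 3 of 19 alternatives. It was -0.44 with a gate of 5 UMIs and -0.31 from numbers 5 to 8 alone, and -0.07 with a 4-fold gate, but 0.70 from the larger of both numbers, 1.26 with the study's filter, 1.19 as a mean of per-cell CPM, 1.84 by clusters, 1.35 in cells of 2000 to 20000 UMIs and 2.30 with only the twi cells of the twi cluster. The ratio of pyr in astrocytes over neurons, -0.33, became -1.46 in astrocytes without neuronal UMIs. The ratio of ths, -1.24, became -5.42 in those cells, -3.20 without cells of more than 1 gate and -1.98 as a mean of per-cell CPM. The ratio of bnl in trh over epidermal cells, -1.25, became -2.44 by clusters and -2.0 without epidermal cells of the trh clusters. Settings on UMI range, neuronal UMIs and cluster membership were added after seeing the data, and the causes of these moves were not tested.

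Leaving out each library pair gave 3.77 to 4.10 for btl, 2.58 to 2.79 for htl in astrocytes, 0.03 to 0.36 for htl in twi cells, -0.54 to -0.17 for pyr, -1.43 to -1.16 for ths and -1.46 to -0.84 for bnl. With no filter beyond 1 UMI the share of features called higher was 21.5% in astrocytes, 18.9% in other repo glia, 11% in trh cells, 24% in twi cells, 11.7% in Mhc cells and 10.5% in epidermal cells. Among features with 20 or more expected UMIs, a limit added after seeing the data, it was 1.70% in twi cells. Thinning to 1000 UMIs lowered all 35 shares of cells with a UMI. All samples are of 1 condition, so no conditions could be paired. Classes of the same library pair were compared within it, as values with no test. The twi class has 125 cells, and 5 of them held 73.5% of its pyr UMIs. Where btl is near 0, its levels rest on 7 to 16 UMIs a class.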
